A study of Saccharomyces cerevisiae with 11 samples.

Results

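Footprints, the mRNA fragments that ribosomes protect, and poly(A)-enriched mRNA of wild-type (WT) budding yeast, Saccharomyces cerevisiae, were compared gene by gene, to describe which genes and functions held many or few ribosomes for their mRNA level. The comparison used 5 of the 11 libraries analysed in the series, chosen by label: WT footprint replicates 1, 2 and 3 and WT mRNA replicates 2 and 3. The other libraries come from a strain that lacks segment ES7S of the 18S rRNA and were not used here. Both WT groups are the strain that the sample labels name yJD1046 and the series design names yJD1045, grown in rich medium (YPD) to an optical density of 0.8. In these cells the genomic rDNA is depleted and all rRNA is made from a plasmid with the WT sequence, so that WT here means a WT rRNA sequence and not an unmodified strain. The labels give no genotype beyond this, and no treatment.

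Ribosome profiling digests the mRNA that ribosomes do not cover and sequences the stretches they protect. Footprint counts of a gene follow its mRNA level, how often ribosomes start on that mRNA and how long they stay on it. Their ratio to mRNA counts is the usual measure of translation efficiency. Upstream reading frames, blocked leaders and transcripts that skip the start codon are known to give yeast genes low ratios.

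Footprints were the 24 to 28 nt fragments of 80S ribosomes taken from a gradient after RNase I digestion, and the mRNA was fragmented at random and size-selected to the same length. The footprint libraries held 8103654, 20262647 and 15880513 counts in replicates 1 to 3, and the mRNA libraries held 43581601 and 57968667 counts in replicates 2 and 3. Each listed between 5593 and 5732 genes. Log2 CPM (counts scaled to a common library size) correlated across 4978 genes with r from 0.989 to 0.992 between footprint libraries, 0.991 between mRNA libraries and from 0.767 to 0.785 across the assays. Genes are not independent replicates, and these values carry no test. Markers of a-cells (MFA1, MFA2, STE2, STE6, BAR1) summed to between 342 and 372 CPM in footprints and to 460 and 426 CPM in mRNA. Those of alpha-cells (MF(ALPHA)1, MF(ALPHA)2, STE3, SAG1) summed to between 10.1 and 12.6 CPM and to 51.2 and 44.8 CPM, with both pheromone genes under 1 CPM in each library. SAG1 held most of the alpha-cell mRNA sum, with 45.4 and 41.5 CPM in mRNA replicates 2 and 3. In mRNA it was above the a-cell markers MFA1 (34.9 and 24.3) and BAR1 (28.5 and 25.35) and below MFA2, STE2 and STE6. The labels do not say whether replicates came from separate cultures, nor whether a footprint and an mRNA library came from the same lysate. P-values therefore measure the spread between these libraries, and a difference in translation cannot be told apart from a difference in mRNA content between the lysates behind each assay. In a bulk culture, a low level in each cell and few cells that use a gene cannot be told apart either.

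The ratio varied widely between genes. Of 5573 genes tested, 2051 (36.8%) were higher in footprints than in mRNA and 2098 (37.6%) were lower, together 74.4%, at an adjusted p under 0.05 by edgeR's quasi-likelihood test with Benjamini-Hochberg adjustment. With a minimum of 2-fold added, 898 genes (16.1%) were higher and 866 (15.5%) lower. The median log2 footprint-to-mRNA ratio was -0.02, the quartiles were -0.66 and 0.64, and the 10th and 90th percentiles lay 6.39-fold apart. In 4631 genes (83.1%), all 3 footprint libraries fell on the same side of both mRNA libraries. The labels name no spike-in, so a ratio says how a gene stands against the rest of its library. Counts of members in the gene lists below are to be read against these background shares. Beyond the genes with the most extreme ratios and the highest and lowest member of each list, genes named as examples were chosen after their values were seen.

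**Figure D1:**
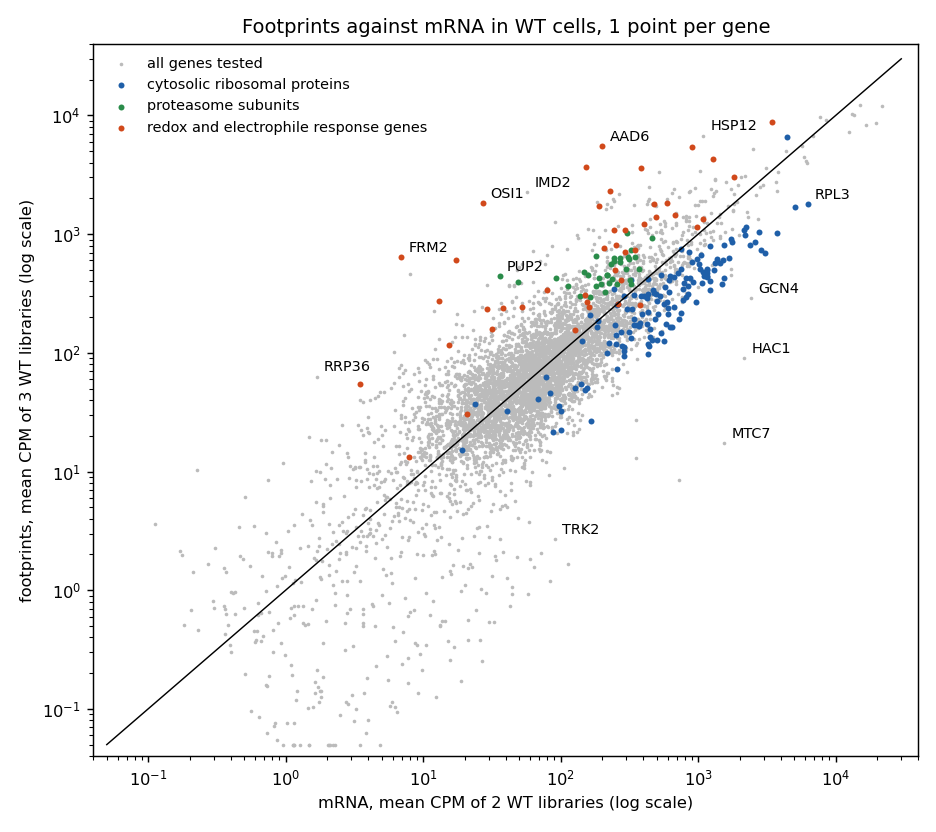
Mean CPM in the 2 WT mRNA libraries (x axis) against mean CPM in the 3 WT footprint libraries (y axis), both on log scales, with 1 point for each of the 5573 genes tested and a line where the values are equal. Values under 0.05 CPM are drawn at 0.05. Ribosomal protein genes lie mostly below the line, proteasome and redox genes mostly above it, and HAC1, GCN4 and MTC7 are far below it.

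The lowest and highest ratios were ranked among called genes whose log2 CPM averaged at least 4 and whose assays did not overlap. By this rule the lowest genes had clear mRNA and few footprints. MTC7, a gene of unknown function, had 21.7, 14.5 and 15.9 CPM in footprint replicates 1 to 3 and 1324 and 1774 CPM in mRNA replicates 2 and 3. Its footprints were 90.8-fold lower than its mRNA (log2 ratio -6.50 ± 0.20 SE, adjusted p = 1.89e-10), and the groups were far apart. YCR024C-B, a short reading frame, was at 9.71, 7.58 and 8.302 CPM in footprints and at 675 and 769.7 CPM in mRNA (log2 -6.43). YLR342W-A, also short, was at 1.89, 1.79 and 1.31 CPM against 103 and 123 CPM (log2 -6.11). In all 3 genes the footprint replicates were close to each other, while the lack of overlap with mRNA was a condition of the ranking. Each of these 3 genes has an expressed neighbour on the same strand. Scaled to coding length, mRNA was 3152 and 4224 CPM per kb for MTC7 and 7302 and 8494 for its neighbour HYP2, which encodes the translation factor eIF5A and had a log2 ratio of -0.70. It was 2527 and 2883 CPM per kb for YCR024C-B and 1803 and 1933 for its neighbour PMP1, a regulatory subunit of the proton pump with a log2 ratio of 1.28. It was 592 and 707 CPM per kb for YLR342W-A and 464 and 502 for FKS1, the glucan synthase beside it, with a log2 ratio of -1.03. The other genes of the lowest 12 were mixed. YLR285C-A had 306 and 370 CPM per kb beside CTS1 (736.5 and 774.9), and SRO77 had 23.8 and 23.3 beside MIX23 (105 and 95.6), each on its strand. GAS2 had 24.9 and 28.2 CPM per kb between YLR342W-A and RPL26A (425 and 508), both on its strand. LIH1, with 45.0 and 41.1 CPM per kb, was above its same-strand neighbour ECM27 (19.6 and 15.55). So were TRK2 (34.3 and 33.5) beside HFL1 (29.5 and 28.7) and YOL029C (63.4 and 70.1) beside YAP7 (42.25 and 41.1). CST9 (44.2 and 38.3) was above ATP10 (20.4 and 19.9) on its strand. The neighbours of TRK2, YOL029C and CST9 on the other strand, FMP46, GAS5 and COX8, were higher. CNM1 (39.45 and 39.3) was below YBR062C (49.1 and 43.9) and above ECM2 (16.3 and 14.9), both on its strand. YER138W-A had 617 and 600.5 CPM per kb. Its nearest neighbours among genes with counts here, both on the other strand, YER137C (27.9 and 24.8) and RTR1 (22.04 and 20.3), had far less. Annotated genes without counts in these libraries were passed over when neighbours were chosen. The part that neighbouring transcripts have in these low ratios was not tested.

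Named genes with a known product were also among the lowest. TRK2, a potassium transporter of the plasma membrane, had 2.65, 2.46 and 3 CPM in footprints and 91.5 and 89.6 CPM in mRNA, a log2 ratio of -5.07 ± 0.14. TRK1, the main potassium transporter, was at 49.1, 43.02 and 42.6 CPM and 159 and 159.5 CPM (log2 -1.83), so both genes of the pair were low in footprints. GAS2, a glucan-modifying enzyme of the spore wall, had a log2 ratio of -5.30, with 0.883, 1.38 and 0.936 CPM against 41.4 and 47.1 CPM. CST9, which acts in meiotic chromosome synapsis, was at 1.77, 2.304 and 1.37 CPM against 64.1 and 55.5 CPM (log2 -5.01). Genes of sporulation and meiosis are normally silent in growing haploid cells, and in both the footprints were near 1 or 2 CPM while mRNA was not. SRO77, which acts in exocytosis, had a log2 ratio of -5.16, and CNM1, a mitochondria-nucleus contact protein, one of -4.78. The remaining genes of the lowest 12 were YLR285C-A (-5.90), LIH1 (-5.80), YER138W-A (-5.26) and YOL029C (-5.11). Among genes that overlap another annotated gene, for which reads cannot be assigned with certainty, PRM10 (-6.12), FYV5 (-5.46) and the mitochondrially encoded COX1 (-2.91) were lowest.

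HAC1 and GCN4, textbook cases of translational control, were both far lower in footprints than in mRNA. HAC1 encodes the transcription factor of the unfolded protein response, and its unspliced mRNA is known to be blocked by its own intron. HAC1 had 93.2, 90.9 and 87.4 CPM in footprints and 2083 and 2239 CPM in mRNA, 23.9-fold lower in footprints (log2 -4.58 ± 0.14, adjusted p = 4.64e-11). The 3 footprint libraries were nearly equal and far below both mRNA libraries. GCN4, the activator of amino acid synthesis, is held back in rich medium by short upstream reading frames. It had 219, 313 and 336 CPM in footprints and 2330.2 and 2506 CPM in mRNA, 8.35-fold lower (log2 -3.06 ± 0.18, adjusted p = 1.34e-08). Footprint replicate 1 was below the other 2, and the groups did not overlap.

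Of 20 genes listed for known upstream reading frames, 4 were higher and 9 lower in footprints, 5 of them by at least 2-fold, with a median log2 ratio of -0.25. Besides GCN4, the low members included HOL1, a polyamine transporter, with 36.6, 48.1 and 48.2 CPM against 232 and 239 CPM (log2 -2.40). PET111, a translational activator in mitochondria, had 11.6, 7.89 and 10.8 CPM against 49.96 and 43.5 CPM (log2 -2.24). CLN3, the G1 cyclin that sets cell size at division, had 35.5, 42.04 and 39.5 CPM against 128 and 115 CPM (log2 -1.63 ± 0.11). CPA1, whose leader peptide responds to arginine, was lower by less (log2 -0.52, adjusted p = 0.00109). HAP4, the activator of respiratory genes, had overlapping groups and did not pass the test (log2 0.10, adjusted p = 0.462). YAP1, the activator of the oxidative stress response, went the other way, with 490.1, 446 and 442 CPM in footprints and 191 and 158 CPM in mRNA (log2 1.40 ± 0.13). The list for programmed frameshifts and spliced translational blocks had 4 genes. It held HAC1, 2 genes that did not pass the test and ABP140. OAZ1, the antizyme that inhibits polyamine synthesis, had a log2 ratio of 0.15 and EST3, a telomerase subunit, one of 0.04. ABP140, an actin-binding protein and tRNA methyltransferase, was at -0.64 (adjusted p = 0.000258).

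**Figure D2:**
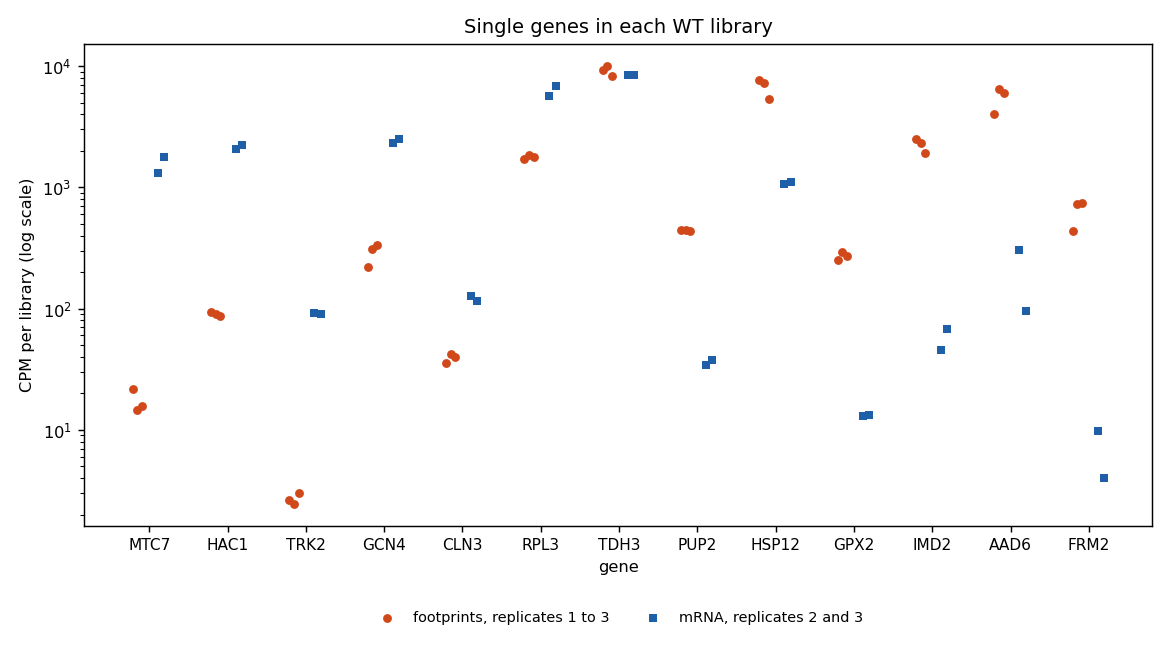
CPM on a log scale for 13 single genes in each WT library, with 3 footprint replicates as circles and 2 mRNA replicates as squares. TDH3 has no gap between the assays. In the other genes replicates of an assay lie close together beside that gap, except for the mRNA of AAD6 and FRM2, where mRNA replicate 2 is above replicate 3.

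Ribosomal protein genes were low in footprints as a group. Of 57 genes of the 40S subunit none was higher, 51 were lower and 35 were lower by at least 2-fold, with a median log2 ratio of -1.17. Of 81 genes of the 60S subunit 3 were higher, 68 lower and 47 lower by at least 2-fold, with a median of -1.13. The 40S list took 2.03, 1.94 and 2.04% of footprint counts and 4.29 and 5.31% of mRNA counts. The 60S list took 3.38, 3.44 and 3.49% of footprint counts and 6.45 and 7.79% of mRNA counts. For both lists every footprint library was below both mRNA libraries, and mRNA replicate 3 was above mRNA replicate 2.

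RPS3, a 40S protein at the mRNA entry channel, had 875, 807 and 904 CPM in footprints and 2215 and 2972 CPM in mRNA (log2 -1.59 ± 0.15, adjusted p = 7.52e-07). RPL3, near the peptidyl transferase centre, had 1717, 1865 and 1794 CPM against 5618 and 6909 CPM (log2 -1.81 ± 0.15, adjusted p = 1.87e-07). RPL5, which binds the 5S rRNA, was at 1044, 1028 and 1021 CPM against 3414 and 4075 CPM (log2 -1.86). These 3 genes have no paralog in yeast, and in each the footprint libraries varied little beside the gap to mRNA. RPS31, made as a fusion to ubiquitin, had a log2 ratio of -2.15, with 646, 698 and 722 CPM against 2586 and 3525 CPM. RPL10, a late-joining 60S protein, stood apart from the list with 5836, 7289.9 and 6453 CPM in footprints and 4078 and 4724 CPM in mRNA, all footprint libraries being above both mRNA libraries (log2 0.57 ± 0.16, adjusted p = 0.0063). Most ribosomal protein genes come in pairs of near-identical copies, and how the authors counted reads that fit both is not given in the sources used here, so that values of single copies are uncertain. Among them, RPS22B, which also overlaps another gene, was the lowest 40S gene (-2.65, beside -1.17 for RPS22A) and RPS27A the highest (0.35, adjusted p = 0.093, beside -0.60 for RPS27B). RPL1B was the lowest 60S gene (-2.20, beside -0.76 for RPL1A) and RPL15B the highest (0.62, beside -1.35 for RPL15A). RPS27A was called higher without mRNA replicate 3 or without footprint replicate 1, and RPS27B lost its call without mRNA replicate 3.

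Translation factors had medians close to 0. Of 29 initiation factors 9 were higher and 5 lower, with a median of 0.11. CAF20, a repressor that binds the cap-binding protein, was highest, with 321, 287 and 285 CPM against 106 and 128 CPM (log2 1.34). RPG1, the largest eIF3 subunit, was lowest, with 387, 358 and 387 CPM against 662 and 722 CPM (log2 -0.87). SUI1 (eIF1) had a log2 ratio of 0.11 and PAB1, the poly(A)-binding protein, one of -0.24, and neither passed the edgeR test, though PAB1 did by DESeq2. Of 15 elongation and termination factors 4 were higher and 5 lower, with a median of 0.02. YEF3, the fungal elongation factor eEF3, had 5072, 4629 and 5315 CPM in footprints and 3955 and 4694 CPM in mRNA (log2 0.21, adjusted p = 0.231). TEF1 and TEF2 encode the same protein, eEF1A, and had log2 ratios of 1.55 and 0.76. EFT1 and EFT2 both encode eEF2 and had log2 ratios of 2.84 and 0.00. These copies are near-identical, so the split between them is uncertain. TEF4, a subunit of the eEF1B exchange factor that overlaps another gene, was lowest (-1.20). Of 21 cytosolic aminoacyl-tRNA synthetases 3 were higher and 11 lower, 1 of them by at least 2-fold, with a median of -0.29, from -1.03 for MES1 (methionine) to 0.81 for GLN4 (glutamine).

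Ribosome assembly factors, which act in the nucleolus and nucleus and leave the finished subunits, were more often high. Of 70 factors of the 40S subunit 46 were higher, 17 of them by at least 2-fold, and 7 lower, with a median of 0.47. Of 72 factors of the 60S subunit 46 were higher, 23 by at least 2-fold, and 6 lower, with a median of 0.49. RRP7, an early pre-40S factor, had 125, 156 and 142 CPM in footprints and 5.297 and 9.296 CPM in mRNA (log2 4.26 ± 0.24, adjusted p = 3.74e-07). RRP36, which acts at the same early stage, had 57.2, 52.6 and 78.6 CPM against 1.61 and 1.76 CPM (log2 5.22). NOP56, a core protein of box C/D snoRNPs, was at 477, 398 and 485 CPM against 85.2 and 123 CPM (log2 2.12). In all 3 the assays did not overlap, which for RRP7 and RRP36 was a condition of the ranking. LOC1, the highest 60S factor, had 137, 119 and 153 CPM in footprints and 10.5 and 23.6 CPM in mRNA (log2 2.99), and its log2 ratio was 2.53 without mRNA replicate 2 and 3.70 without mRNA replicate 3. The lowest 40S factor was UTP10, with a log2 ratio of -1.25, and the lowest 60S factor REA1, a dynein-related ATPase also called Mdn1 (-2.16). Of 36 subunits and factors of RNA polymerases I and III, the enzymes for rRNA and tRNA, 17 were higher and 8 lower, with a median of 0.22, from -1.90 for RRN7 to 1.75 for RPC17. Of 73 mitochondrial ribosomal proteins 41 were higher, 13 by at least 2-fold, and 10 lower, with a median of 0.29. MRPS17 was highest, with 149.8, 117 and 139.8 CPM against 24.6 and 26.8 CPM (log2 2.39), and MRPL4 lowest (-1.32).

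**Figure D3:**
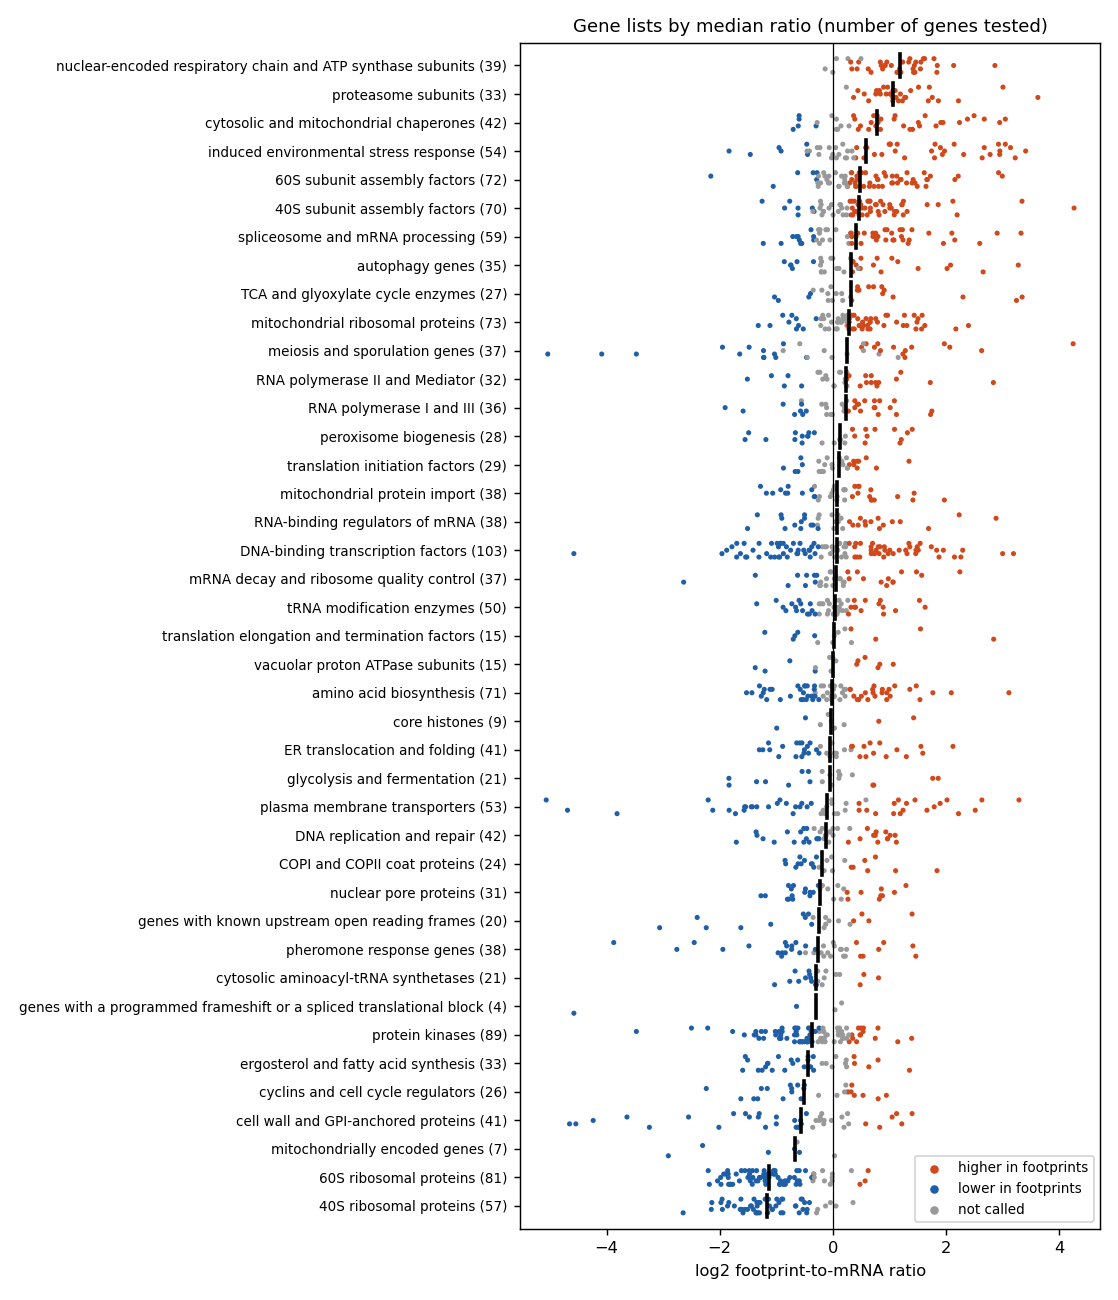
Log2 footprint-to-mRNA ratio (x axis) of each tested member of 41 gene lists, sorted by the list median (black bar), with the number of genes tested in brackets. Red points were called higher and blue points lower in footprints at an adjusted p under 0.05, and grey points were not called. The 40S and 60S ribosomal proteins have the lowest medians (-1.17 and -1.13), and respiratory chain and proteasome subunits the highest (1.18 and 1.06).

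The highest ratios were led by genes of redox defence. FRM2, a nitroreductase-like protein, had 439, 732 and 742 CPM in footprints and 9.86 and 3.97 CPM in mRNA (log2 6.54 ± 0.57, adjusted p = 0.00014). OSI1, named for its induction by oxidative stress, had 1307, 1846 and 2319 CPM against 39.02 and 15.2 CPM (log2 6.08 ± 0.59, adjusted p = 0.000243). Footprints were above mRNA in every library, as the ranking required, but mRNA replicate 2 was more than 2-fold above replicate 3 in both genes. SRX1, the sulfiredoxin that repairs oxidised peroxiredoxins, had 376, 884 and 565 CPM against 20.4 and 14 CPM (log2 5.15). AAD6, an aryl-alcohol dehydrogenase homologue, had 3996, 6493 and 6014 CPM against 306 and 95.1 CPM (log2 4.78). OYE3, an NADPH oxidoreductase of the old yellow enzyme family, had 3349.6, 3944 and 3786 CPM against 220.1 and 84.5 CPM (log2 4.601). In AAD6 and OYE3, too, mRNA replicate 2 was more than 2-fold above replicate 3. GPX2, a glutathione peroxidase, showed no such gap, with 253, 290.1 and 270.1 CPM in footprints and 12.95 and 13.2 CPM in mRNA (log2 4.37 ± 0.13, adjusted p = 4.64e-11).

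The size of the first of these ratios rests on which mRNA library is used. Without mRNA replicate 2 the log2 ratio was 7.32 for FRM2, 6.90 for OSI1, 5.85 for AAD6 and 5.45 for OYE3. Without mRNA replicate 3 it was 6.02, 5.55, 4.17 and 4.07. The direction stayed the same, which the ranking all but fixed, since every footprint library had to lie above both mRNA libraries. The others among the 12 highest were YDL218W (5.83), IMD2 (5.30), RRP36, RRP7, SLK19 (4.02) and CIS1 (4.01). SLK19, which acts in mitotic exit, was at 113, 85.4 and 107 CPM against 3.18 and 9.11 CPM, and at a log2 ratio of 3.48 without mRNA replicate 2 and 4.998 without mRNA replicate 3. Among overlapping genes SPS100, a spore wall protein (4.24), PRP38, a splicing factor (2.15), and GRX2, a glutaredoxin (2.14), were highest.

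A list of 43 redox and electrophile response genes was drawn up after these values were seen, and describes the group without testing it. In it 39 genes were higher, 32 by at least 2-fold, and GSH2, of glutathione synthesis, alone was lower (log2 -0.56), with a list median of 1.76. The list took 5.53, 6.24 and 6.22% of footprint counts and 2.03 and 1.48% of mRNA counts. TRX2, a thioredoxin, had 3313, 3655 and 3769.6 CPM in footprints and 446 and 322 CPM in mRNA (log2 3.22). OYE2 had 4897, 5570.3 and 5756 CPM against 1079.6 and 712 CPM (log2 2.59). SOD1, the copper-zinc superoxide dismutase, had 4307, 4508 and 4178 CPM against 1478 and 1083 CPM (log2 1.76). The abundant peroxiredoxin AHP1 had 9106, 9119 and 8439 CPM against 3968 and 2974 CPM (log2 1.36). In these 4 genes the footprint replicates lay above both mRNA libraries and mRNA replicate 2 lay above mRNA replicate 3.

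A second list drawn up after the values were seen held 27 genes of sulfate assimilation and methionine synthesis, of which 26 were higher, 19 by at least 2-fold, and none was lower, with a median of 1.86. It took 1.503, 1.536 and 1.422% of footprint counts and 0.6288 and 0.4998% of mRNA counts. MET3 (ATP sulfurylase, the entry step) had 796, 737 and 615 CPM in footprints and 76.4 and 48.6 CPM in mRNA (log2 3.52 ± 0.22). MET14 (adenylylsulfate kinase, the next step) had 548, 519 and 432 CPM against 59.5 and 36.2 CPM (log2 3.38). MET28, a regulator of the same genes, was the highest of the transcription factors (3.19). SAM1, one of the S-adenosylmethionine synthetases, had a log2 ratio of 0.06 and did not pass the test. Among 71 amino acid biosynthesis genes as a whole 25 were higher and 27 lower, with a median near 0 (-0.02), from -1.53 for LEU9 to 3.11 for MET2. HIS4, of histidine synthesis, was at 0.87. IMP dehydrogenases catalyse the rate-limiting step of GTP synthesis, and all 3 tested genes, grouped after the values were seen, were higher: IMD2 had 2489, 2309.6 and 1930.4 CPM against 45.6 and 68.4 CPM (log2 5.30), IMD3 a log2 ratio of 2.80 and IMD4, which overlaps another gene, one of 1.89. These copies are near-identical and their split is uncertain, but as a sum they took 0.377, 0.374 and 0.355% of footprint counts and 0.0256 and 0.0408% of mRNA counts.

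**Figure D4:**
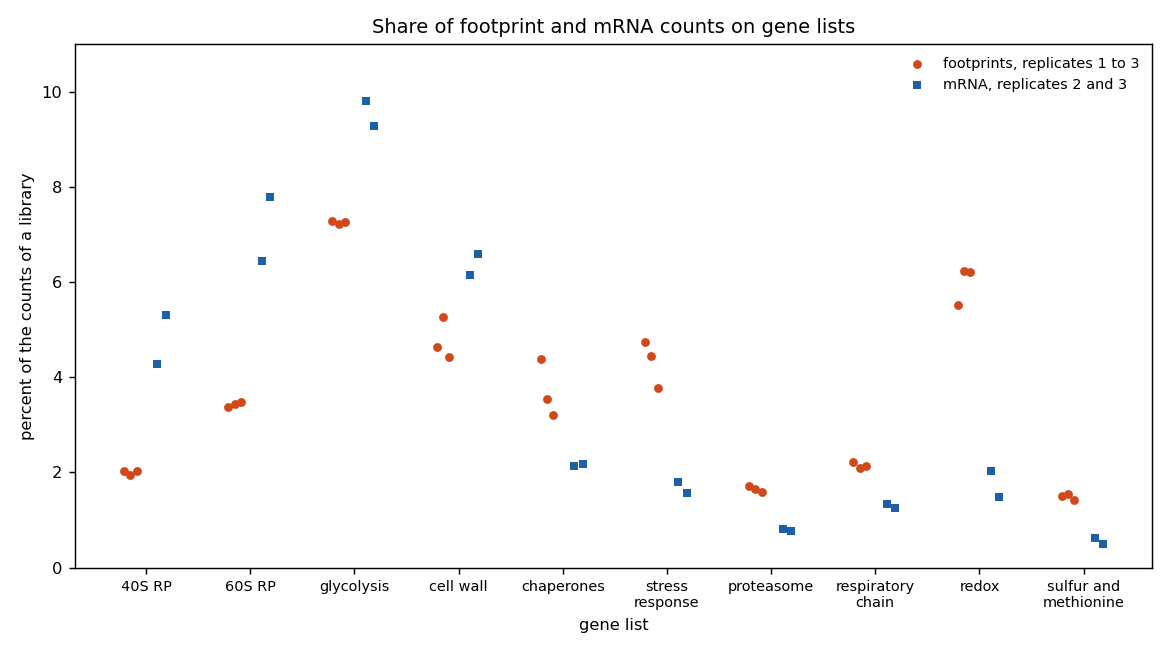
Percent of each library's counts (y axis) on 10 gene lists, with 3 footprint replicates as circles and 2 mRNA replicates as squares. Ribosomal protein, glycolysis and cell wall genes took less of the footprints than of the mRNA, and the other 6 lists took more. The redox and the sulfur and methionine lists were drawn up after the values were seen.

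Proteasome genes, which are known to share the activator Rpn4, were high almost without exception. Of 33 subunits 32 were higher, 21 by at least 2-fold, and none was lower, with a median of 1.06. They took 1.72, 1.64 and 1.59% of footprint counts and 0.802 and 0.765% of mRNA counts. PUP2, an alpha subunit of the 20S core, had 443, 448 and 435 CPM in footprints and 34.4 and 37.4 CPM in mRNA, 12.3-fold higher (log2 3.62 ± 0.13, adjusted p = 1.53e-10). RPN8 and RPN11, partner subunits of the deubiquitinating lid, had log2 ratios of 3.004 and 2.22. PRE5, another alpha subunit, was the subunit that did not pass the edgeR test, with 375, 415 and 351 CPM against 333 and 313 CPM (log2 0.24, adjusted p = 0.0874), though it passed by DESeq2. In groups formed after the values were seen, the median was 1.06 over 14 core genes and 1.12 over 19 genes of the regulatory particle, a difference that was not tested.

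Of 42 chaperones 30 were higher, 17 by at least 2-fold, and 5 lower, with a median of 0.78. HSP104, the disaggregase, had 4303, 3179 and 2463 CPM in footprints and 527 and 512 CPM in mRNA (log2 2.67 ± 0.23). SSA4, the heat-inducible Hsp70, had 897, 555 and 318 CPM against 72.5 and 70.2 CPM (log2 3.05 ± 0.48). HSP82, the inducible Hsp90, had 1951, 1175 and 1076 CPM against 503 and 467 CPM (log2 1.53). Footprint replicate 1 was highest for all 3 genes, and for the list as a whole: it took 4.39, 3.55 and 3.21% of the counts of footprint replicates 1 to 3 and 2.13 and 2.18% of mRNA counts. Some chaperones that sit on the ribosome and receive nascent chains were among the 5 lower genes. ZUO1, a J-protein of the ribosome and the lowest member, had 605, 609 and 639 CPM against 917 and 1092 CPM (log2 -0.70), and the Hsp70 SSB1 had 549, 547 and 521 CPM against 736 and 913 CPM (log2 -0.61). In groups formed after the values were seen, 9 of 14 genes of the Hsp70 system were higher and 5 lower, 8 of 9 genes of the Hsp90 system were higher, and so were 6 of 8 subunits of the TRiC/CCT chaperonin.

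The induced environmental stress response was represented by 54 genes, of which 31 were higher, 23 by at least 2-fold, and 6 lower, with a median of 0.59. The list took 4.74, 4.45 and 3.78% of footprint counts and 1.80 and 1.56% of mRNA counts. HSP12, a small membrane-associated stress protein, had 7731, 7200.4 and 5356 CPM in footprints and 1071 and 1104 CPM in mRNA, 6.22-fold higher (log2 2.64 ± 0.19, adjusted p = 6.02e-08). GND2, of the pentose phosphate pathway, had the highest ratio of the list (3.40) and HXK1, the hexokinase used without glucose, the lowest (-1.84). HSP12 and HSP26 (2.95) were highest in footprint replicate 1 and lowest in replicate 3. Enzymes of trehalose and glycogen metabolism, which belong to the same response, were mostly not called: of 16 genes grouped after the values were seen 1 was higher and 3 were lower, and 12 did not pass the test. TPS1, of trehalose synthesis, was the higher gene (1.01) and GSY1, a glycogen synthase, the lowest (-1.46).

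Nuclear genes for respiration were high. Of 39 subunits of the respiratory chain and ATP synthase 34 were higher, 22 by at least 2-fold, and none was lower, with a median of 1.18. They took 2.23, 2.09 and 2.13% of footprint counts and 1.33 and 1.25% of mRNA counts. QCR8, of complex III, had 712, 729 and 771 CPM in footprints and 171 and 165 CPM in mRNA (log2 2.13 ± 0.13), while COR1, a core subunit of the same complex, had 676, 626 and 609.6 CPM against 646 and 631 CPM, groups that overlapped (log2 0.00). COX7, of cytochrome c oxidase, had 281, 242 and 245 CPM against 68.8 and 73.5 CPM (log2 1.84). ATP1, the alpha subunit of ATP synthase, had 1961, 1914 and 1812 CPM against 1019 and 1045 CPM (log2 0.88). STF2, a stabiliser of the ATP synthase inhibitor, was highest (2.86) and NDE1, the external NADH dehydrogenase, lowest (-0.14, adjusted p = 0.369). By complex, in groups formed after the values were seen, all 9 nuclear cytochrome c oxidase subunits were higher, as were 12 of 13 ATP synthase subunits and 6 of 9 complex III subunits, with medians of 1.34, 0.92 and 0.62.

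Mitochondrially encoded genes had few counts in both assays. Of 7 genes tested of 8, none was higher, 5 were lower and 3 lower by at least 2-fold, with a median of -0.68 that was -1.22 without footprint replicate 2. COX1 had 6.06, 4.81 and 4.56 CPM in footprints and 32.3 and 43.03 CPM in mRNA (log2 -2.91), and COX2, which like COX1 overlaps another gene, had 10.3, 7.84 and 8.36 CPM against 8.89 and 8.19 CPM (log2 0.03, adjusted p = 0.901). Mitochondrial mRNAs of yeast are known to lack poly(A) tails, and the mRNA here was enriched on oligo-dT. The part this has in the levels was not tested.

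Of 27 enzymes of the TCA and glyoxylate cycles 13 were higher, 4 by at least 2-fold, and 4 lower, with a median of 0.31 that was 0.17 without mRNA replicate 3. CIT2, the peroxisomal citrate synthase, had 1265, 1902 and 2448 CPM in footprints and 233 and 136 CPM in mRNA (log2 3.34), footprint replicate 1 being lowest, and DAL7 was the lowest member (-1.03). Glycolytic and fermentative enzymes, which make up much of the yeast mRNA pool, took 7.29, 7.22 and 7.26% of footprint counts and 9.80 and 9.29% of mRNA counts. Of 21 genes 4 were higher and 8 lower, with a median near 0 (-0.05). PDC1, the main pyruvate decarboxylase, had 8714, 8565 and 8515 CPM in footprints and 18169 and 21099 CPM in mRNA (log2 -1.19 ± 0.15). CDC19, pyruvate kinase, had 7393, 7277 and 7246 CPM against 12437 and 12717 CPM (log2 -0.78). TDH3, the main glyceraldehyde-phosphate dehydrogenase, had 9294, 10039 and 8266 CPM against 8462 and 8490.1 CPM, and the groups overlapped (log2 0.12, adjusted p = 0.504). PDC5 was the lowest member (-1.84). TDH1, the highest (1.86), had 968 and 367 CPM in mRNA and was at 2.72 without mRNA replicate 2 and 1.32 without mRNA replicate 3. It is a related copy of TDH2 (-0.05) and TDH3, as ENO1 (0.71) is of ENO2 (-0.41, adjusted p = 0.0256). How reads that fit more than 1 copy were counted is not given, so these values are uncertain. ENO2 lost its call without footprint replicate 1 or 3 or mRNA replicate 2.

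Genes of the cell surface and of lipid synthesis were more often low. Of 41 cell wall and GPI-anchored proteins tested of 42, 6 were higher and 22 lower, 14 of them by at least 2-fold, with a median of -0.56. That median shrank to -0.29 once members whose log2 CPM averaged under 4 were left out. FIT1, a mannoprotein that retains iron siderophores, had 0.378, 0.563 and 0.562 CPM in footprints and 12.7 and 14 CPM in mRNA (log2 -4.65), from 3 to 11 footprint counts a library. FLO11, an adhesin, had 0.252, 0.768 and 0.499 CPM against 13.04 and 13.6 CPM (log2 -4.54). TIR4, a cell wall protein of anaerobic growth, had 0.883, 0.922 and 1.12 CPM against 18.5 and 18.9 CPM (log2 -4.24). In these 3 genes footprints stayed around or under 1 CPM while mRNA was well above it. CWP1, an abundant wall protein, was also lower, with 556, 561 and 421 CPM against 1580.5 and 1880.1 CPM (log2 -1.76). HSP150, a secreted glycoprotein, was higher, with 4796, 5838 and 4868 CPM against 2492 and 2514 CPM (log2 1.05), and SPI1 was the highest member (1.40). Of 7 siderophore uptake genes, grouped after the values were seen, 6 were lower, among them the transporters ENB1, with 3.66, 5.89 and 5.49 CPM against 38.5 and 43.6 CPM (log2 -2.98), and ARN2 (-2.92).

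Of 33 genes of ergosterol and fatty acid synthesis 5 were higher and 21 lower, 9 of them by at least 2-fold, with a median of -0.44. HMG1, an HMG-CoA reductase at the controlled step of sterol synthesis, had 141, 109 and 99.9 CPM in footprints and 336 and 366 CPM in mRNA (log2 -1.60 ± 0.14). ERG2, a sterol isomerase, had 229.7, 265 and 219 CPM against 641 and 713 CPM (log2 -1.51). OLE1, the fatty acid desaturase, was the highest member, with 1025, 1023 and 1211 CPM against 441 and 409 CPM (log2 1.35). Plasma membrane transporters were spread to both sides: of 53 tested of 54, 19 were higher and 23 lower, 15 and 14 of them by at least 2-fold, with a median of -0.11. ENA1, a sodium pump, had 72.04, 81.7 and 62.4 CPM against 7.11 and 7.64 CPM (log2 3.29), while its near-identical neighbour copy ENA5 was at -2.87. HXT7, a glucose transporter, had 1.01, 0.768 and 1.31 CPM against 26.9 and 25.8 CPM (log2 -4.69), and its near-identical copy HXT6 had too few counts to be tested. How reads that fit both copies were counted is not given, so the values of ENA1, ENA5 and HXT7 are uncertain. PMA1, the proton pump, had 5439, 5408 and 5854 CPM against 5561 and 5733 CPM, groups that overlapped (log2 -0.02, adjusted p = 0.906). Its copy PMA2 was at 1.16. The 15 vacuolar proton ATPase subunits had a median of 0.00, with 6 higher and 4 lower, from -1.37 for VMA16 to 1.07 for VMA10. Of 41 genes of ER translocation and folding 14 were higher and 18 lower (median -0.05), from -1.30 for SSH1 to 2.12 for SPC1. Of 24 COPI and COPII genes 7 were higher and 11 lower (median -0.20), from -0.85 for SEC23 to 1.84 for SEC17.

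Protein kinases were more often low. Of 89 protein kinases 14 were higher and 48 lower, 14 of them by at least 2-fold, with a median of -0.37. TOR2, the kinase of growth and actin control, had 38.5, 40.05 and 44.4 CPM in footprints and 142 and 139 CPM in mRNA (log2 -1.77 ± 0.10). GCN2, the eIF2 kinase that senses uncharged tRNA, had 54.5, 44.4 and 49.7 CPM against 147 and 145 CPM (log2 -1.57). CDC28, the cell cycle kinase, was higher, with 163, 156 and 156 CPM against 111 and 114 CPM (log2 0.49). The extremes of the list were meiotic kinases with few counts. IME2, the lowest, held 11, 15 and 27 footprint counts and 652 and 770 mRNA counts (log2 -3.47). MEK1, the highest (1.39), held between 9 and 19 counts a library and lost its call by DESeq2 and without footprint replicate 1 or 3 or mRNA replicate 3, at 0.83 without that last library and 2.11 without mRNA replicate 2. Of 26 cyclins and cell cycle regulators 7 were higher and 14 lower, 6 of them by at least 2-fold, with a median of -0.51. The 3 G1 cyclins were all lower: beside CLN3 (-1.63), CLN1 had 46.9, 39.7 and 49.1 CPM against 125 and 113 CPM (log2 -1.40), and CLN2 158, 163 and 147 CPM against 252 and 265 CPM (log2 -0.73). ESP1, separase, was lowest, with 14.8, 13.9 and 16.1 CPM against 70.7 and 70.2 CPM (log2 -2.24), and PCL1, a cyclin of Pho85, highest (0.94).

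DNA-binding transcription factors were evenly split, with 42 of 103 higher and 42 lower, 21 and 17 by at least 2-fold, and a median of 0.06. Their range was wide. ROX1, the repressor of hypoxic genes, had 340.4, 379 and 376 CPM in footprints and 47.98 and 43.4 CPM in mRNA (log2 2.998 ± 0.13). STP1, which answers external amino acids, had 191, 206 and 196 CPM against 39.9 and 42.5 CPM (log2 2.26). HAC1 was the lowest member. Of 38 pheromone response genes tested of 40, 7 were higher and 17 lower (median -0.26). STE18, the G protein gamma subunit, had 66.2, 72.2 and 57.99 CPM against 22.5 and 24.97 CPM (log2 1.46), and FUS2, used in cell fusion, 0.757, 0.717 and 0.936 CPM against 11.7 and 11.99 CPM (log2 -3.87). Of 37 meiosis and sporulation genes tested of 42, 14 were higher and 13 lower, with a median of 0.25. That median was -0.02 without overlapping genes, 0.38 without footprint replicate 1 and 0.77 at an average log2 CPM of at least 4. SMK1, a sporulation kinase and the lowest of them, held 0, 1 and 3 footprint counts and 138 and 191 mRNA counts. Of 42 DNA replication and repair genes 13 were higher and 16 lower (median -0.13), from -1.71 for CDC45 to 1.12 for RFA1. Of 9 core histone genes 2 were higher and 2 lower (median -0.03). HHT1 was highest (1.43) beside its near-identical copy HHT2 (-0.03), and HTB2 lowest (-0.99). Of 31 nuclear pore proteins 9 were higher and 15 lower (median -0.23), from -1.27 for NUP170 to 1.29 for NUP53.

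Of 59 spliceosome and mRNA processing genes 34 were higher, 17 by at least 2-fold, and 12 lower, with a median of 0.41. The highest member was LSM8, of the U6 snRNP ring, with 16.7, 19.6 and 18.5 CPM in footprints and 1.46 and 2.17 CPM in mRNA (log2 3.32). The lowest was PRP8, the spliceosome's central scaffold, with 81.2, 84.8 and 83.8 CPM against 198 and 193 CPM (log2 -1.23). Of 35 autophagy genes 16 were higher, 7 by at least 2-fold, and 6 lower, with a median of 0.31. That median was 0.14 without mRNA replicate 3, 0.19 without footprint replicate 2 and 0.09 at an average log2 CPM of at least 4. ATG8, the ubiquitin-like protein of the autophagosome, had 319.6, 272 and 298 CPM against 49.4 and 44.8 CPM (log2 2.65), ATG41 was highest (3.28) and ATG2 lowest (-0.86). Of 32 genes of RNA polymerase II and Mediator 14 were higher and 5 lower (median 0.23), from -1.51 for SIN4 to 2.83 for NUT2. The remaining lists had medians from 0.03 to 0.13. Of 37 genes of mRNA decay and ribosome quality control 13 were higher and 9 lower (median 0.05). In that list the helicase DHH1 had 178, 165 and 165 CPM against 35.8 and 35.7 CPM (log2 2.24), and the deadenylase subunit PAN2 23.8, 16.1 and 20.5 CPM against 120.1 and 126 CPM (log2 -2.64). Of 38 RNA-binding regulators 15 were higher and 13 lower (median 0.07), from -1.51 for NAB6 to 2.88 for SLF1. Of 50 tRNA modification enzymes 14 were higher and 15 lower (median 0.03), from -1.35 for KAE1 to 1.63 for UBA4. Of 38 mitochondrial import genes 14 were higher and 11 lower (median 0.07), from -1.28 for OXA1 to 1.97 for MIA40. Of 28 peroxisome biogenesis genes 11 were higher and 11 lower (median 0.13), from -1.55 for PEX8 to 1.40 for PEX21.

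The ratio varied with coding length, taken here with introns included. In 5 groups of similar size, from 78 to 669 nt up to 2124 to 14733 nt, the median log2 ratio was 0.50, 0.17, -0.03, -0.12 and -0.46. Among the shortest genes 30.7% were called higher by at least 2-fold and 12.1% lower, and among the longest 6.04% and 25.1%. Across 5569 genes with a length the ratio and the length had a Spearman rho of -0.30, a description over genes that share the same 5 libraries. Ribosomal proteins had lower ratios than other genes of the same length group. In the shortest group 47 ribosomal protein genes had a median of -1.02 and 1072 other genes one of 0.56. In the next group 75 had a median of -1.16 and 1043 others one of 0.24. The median of ribosomal proteins was -1.59 over 14 genes from 1042 to 1233 nt. Because these lengths include introns, a longer ribosomal protein gene need not have a longer coding sequence, and the 2 were not separated. The median coding length was 414 nt in the list of respiratory subunits, 864 nt in that of proteasome subunits, 2100 nt in that of kinases and 2520 nt in that of nuclear pore proteins. The part that length has in the medians of these lists was not tested. The counted region, coding sequence or whole transcript, is not given in the sources used here.

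**Figure D5:**
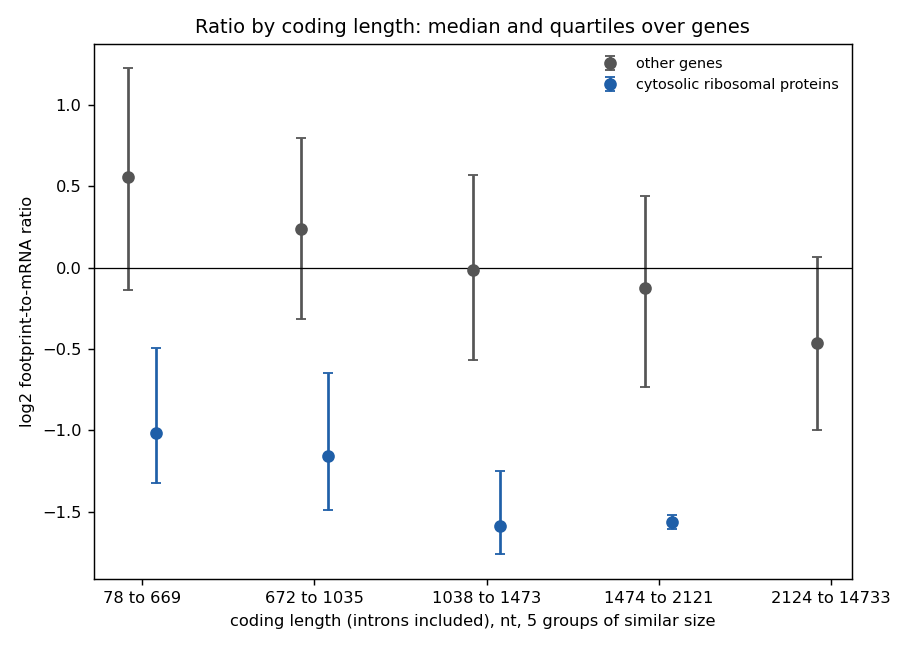
Median log2 footprint-to-mRNA ratio (points) with quartiles over genes (bars) in 5 groups of the tested genes by coding length in nt, introns included, for cytosolic ribosomal proteins and other genes. The medians of other genes go from 0.56 in the shortest group to -0.46 in the longest, and ribosomal proteins lie below them wherever both are present. The group from 1474 to 2121 nt holds 2 ribosomal protein genes.

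The mRNA level moved little with the ratio. When genes were placed in 5 groups of similar size by mRNA CPM per kb in replicate 2 and the ratio was taken against mRNA replicate 3, the median log2 ratios were 0.07, -0.09, -0.06, 0.04 and -0.03 from the lowest to the highest group. With the mRNA replicates exchanged they were -0.03, -0.09, -0.04, 0.09 and -0.01. The genes of the lowest group were the most spread, with quartiles of -0.74 and 0.91 in the first of these splits and -0.64 and 0.67 in the highest group. Genes often used as selection markers were grouped after the values were seen. URA3 had 9924, 11898 and 14119 CPM in footprints and 22591 and 20850.1 CPM in mRNA (log2 -0.86, adjusted p = 0.000571), and TRP1 had 11838, 13139.5 and 11429 CPM against 15618 and 14574 CPM (log2 -0.31, adjusted p = 0.0812). Of 7 such marker genes 2 were higher and 2 lower.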

How the data were processed

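The authors deposited raw read counts per gene, 1 table per library, with no normalisation. Per the submitters' processing notes, FastQC 0.11.7 and Bowtie 1.2.3 were used. The sources used here name no genome build, counter, counted region, strand setting or rule for reads with several matches. An unlisted gene was taken as 0. Of 5750 genes, 5746 matched RefSeq's gene table by systematic name. PCR copies were counted without molecular identifiers.

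Counts of the 5 WT libraries were fitted in R 4.3.3 with edgeR 4.0.16 (filterByExpr, which left 5573 genes, TMM, estimateDisp, glmQLFit with robust=TRUE, glmQLFTest), footprints minus mRNA, two-sided, with Benjamini-Hochberg adjustment at 0.05. SE is the absolute log2 ratio over the square root of F. TMM-scaled library sizes were used for CPM, and library totals for shares of counts. The 14 alternatives included other scalings and filters, DESeq2 1.42.0 and limma-voom (limma 3.58.1).

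Named genes were the 12 highest and 12 lowest ratios among called genes whose log2 CPM averaged at least 4 and whose assays did not overlap, up to 3 overlapping genes per direction, the extremes of each of 41 lists, and well-studied genes with their near-identical copies. Libraries, lists and rules were chosen with earlier results of these data known, so lists are described and not tested as sets. No library was a duplicate: the chi-square per degree of freedom within groups was at least 27.5.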

Additional observations from a re-analysis of the deposited data

How the results depend on the processing

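Over the 14 alternatives the genes called higher numbered from 1824 to 2071 and those called lower from 1876 to 2303, and by at least 2-fold from 772 to 907 and from 672 to 977. The counts called in the 40S and 60S ribosomal protein, 40S and 60S assembly factor, respiratory, proteasome, chaperone and stress response lists stayed within 1.5 times their reported values. Leaving out each library in turn gave from 1824 to 2038 genes higher and from 1895 to 2074 lower. With the replicate number as a block, 2061 genes were higher and 2125 lower. The labels do not say that numbers pair libraries and only replicates 2 and 3 exist in both assays, so the number was not taken as a pairing. Deviations from the group means correlated across 4978 genes with r = 0.20 for number 2 and 0.02 for number 3. With footprints 2 and 3 only, r was 0.136. The deviations of 2 mRNA libraries mirror each other, so these values cannot decide whether numbers pair libraries. Of 1885 values of 136 named genes under the alternatives, none reversed, 12 lost and 5 gained a call, in 6 genes (ENO2, MEK1, RPS27A, RPS27B, PAB1 and PRE5). Many of these genes were named for extreme ratios in the same libraries, so few reversals were possible from the start. The medians of 12 lists changed sign under at least 1 alternative, among them transcription factors, glycolysis, elongation factors, amino acid synthesis and meiosis. Leaving out 1 library moved the median of 20 of 41 lists by over 1.5 times or across 0, of which 16 had a median under 0.2 in size, and the others were autophagy, TCA cycle, meiosis and mitochondrially encoded genes. The median of the mitochondrially encoded genes was -2.93 at an average log2 CPM of at least 4, where few of them are left. With 2 mRNA libraries, ratios of genes whose mRNA differs between them are the least certain.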
